A study of Mus musculus with 7 samples.

Results

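Genes that the transcription factor p53 switches on, among them Ninj1, were read in a hindlimb muscle of mice labelled as lacking the catalytic subunits of AMP-activated protein kinase (AMPK). The set held 10 genes, Ninj1, Cdkn1a, Mdm2, Ccng1, Trp53inp1, Bax, Sesn1, Sesn2, Phlda3 and Gadd45a, and each was read from the probe set that the array's annotation assigned to that symbol alone. On this rule 8 of the 10 genes were measured, each by 1 probe set, out of 19938 genes in all. The annotated probe set of Cdkn1a carries 2 gene symbols and Bax matched no annotated probe set, so neither level was analysed here. The genes were put forward with the knockout and wild type values of these arrays in view, so they count as chosen by the knockout minus wild type differences in log2 expression. Those differences are given as a description, with no p for any of these genes, and counts of them in the fit over all genes are descriptions too.

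RNA came from a fast-twitch muscle of the lower leg, the extensor digitorum longus. It was taken from 4 wild type mice and from 3 mice carrying the AMPKα1α2 double knockout, and each mouse had 1 single-colour array. Both genotypes shared a genetic background that mixed C57/Bl6 with SV129. The labels leave out the age and sex of the mice, whether the muscles had been exercised, the promoter or tissue of the deletion and which exons were deleted. The study's title concerns AMPK and the use of fatty acids by muscle during exercise, and the arrays compare muscle transcripts of the 2 genotypes. Values are log2 expression per probe set, so a difference of 1 is a doubling, and a value joined to a difference by ± is its moderated standard error from limma. Array medians lay between 7.50 and 7.58. The 10 fast fibre markers averaged between 13.77 and 13.83 in every array, and 0 of them passed an adjusted p of 0.05. Prkaa1, the targeted α1 gene, differed by -0.51 ± 0.09 and Prkaa2, the α2 gene, by -0.21 ± 0.07 (limma, adjusted p = 0.12 and adjusted p = 0.39), on probe sets that may lie outside the deleted part. For Prkaa2 the genotypes overlapped, since wild type replicate 2 read 12.03, inside the knockout range of 11.95 to 12.04. The genotypes were therefore taken from the labels.

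p53 is a DNA-binding protein that is held at a low level by the ubiquitin ligase MDM2 and accumulates when cells meet DNA damage, oncogene activity or metabolic stress. It binds paired half-sites in DNA and raises genes for cell cycle arrest, DNA repair, cell death and metabolism, as well as Mdm2 itself, which closes a feedback loop. AMPK can phosphorylate p53, and the sestrins, which are p53 targets, act on AMPK and on the growth regulator mTORC1. Ninj1 encodes ninjurin 1, a small membrane protein found as an adhesion molecule of injured nerve, which also assembles in the plasma membrane of dying cells and ruptures it, and which is abundant in macrophages.

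The promoter windows of the genes were read first, since a p53 half-site is the sequence they might share. A half-site was taken as 10 bases, 3 purines, a C, 2 bases that are each A or T, a G and 3 pyrimidines, a consensus that reads the same on both strands. In the RefSeq table of mouse build GRCm38.p6, which covers 250 bases before and 50 bases after each start, 9 of the 10 genes had a window and Cdkn1a and Sesn1 had 2 windows each. An exact half-site was present in windows of 6 genes, Cdkn1a, Mdm2, Ccng1, Bax, Sesn1 and Gadd45a, or in 54.5% of their 11 windows, against 8.36% of all 32851 windows. The stretches below show these half-sites in capitals, with 15 bases on each side, 5′ to 3′ on the strand of the gene. In Ccng1 and Bax the capitals also mark a neighbouring half-site with 1 mismatch. In Cdkn1a the 10 bases that directly follow the second half-site also have 1 mismatch, and are left in lower case.
Cdkn1a, chr17:29090891-29090952, plus strand: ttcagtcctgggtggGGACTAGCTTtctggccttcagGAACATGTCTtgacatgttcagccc
Ccng1, chr11:40755447-40755496, minus strand: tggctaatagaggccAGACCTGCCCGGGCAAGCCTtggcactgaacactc
Bax, chr7:45467075-45467125, minus strand: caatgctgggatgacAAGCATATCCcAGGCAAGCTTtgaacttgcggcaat
Mdm2, chr10:117710920-117710959, minus strand: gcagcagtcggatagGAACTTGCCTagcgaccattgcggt
Sesn1, chr10:41887251-41887290, plus strand: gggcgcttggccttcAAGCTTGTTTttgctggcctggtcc
Gadd45a, chr6:67037423-67037462, minus strand: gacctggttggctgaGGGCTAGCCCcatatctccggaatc

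Cdkn1a alone held 2 exact half-sites within 13 bases of each other, an arrangement found in 24 windows or 0.0731% of all. They are 12 bases apart, 73 to 42 bases before the start in the first of its 2 windows. Its second window, at another start, held no exact half-site. A pair with at most 1 mismatch was present in Cdkn1a, Ccng1 and Bax, against 1.09% of all windows. In Ccng1 the half-sites adjoin, 195 to 176 bases before the start, and in Bax they are 1 base apart. The windows of Ninj1, Sesn2 and Phlda3 held no exact half-site. The 250 bases before the start of Ninj1, chr13:49187279-49187528 on the plus strand, are shown because, of the measured members, Ninj1 set the genotypes apart most clearly.
Ninj1: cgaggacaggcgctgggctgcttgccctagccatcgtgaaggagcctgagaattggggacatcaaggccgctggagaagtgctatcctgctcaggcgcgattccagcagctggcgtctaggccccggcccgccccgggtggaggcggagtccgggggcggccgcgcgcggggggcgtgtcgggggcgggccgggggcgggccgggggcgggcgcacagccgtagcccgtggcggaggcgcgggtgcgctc
These matches describe the letters in the windows. p53 sites further upstream or inside the genes, where those of Mdm2 are known to lie, were not searched.

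Across the measured genes, Ninj1 and Mdm2 were higher in all knockout arrays, Gadd45a was high in 1 knockout array, and Trp53inp1, Ccng1, Phlda3, Sesn1 and Sesn2 had overlapping genotypes. Of the 8 genes 6 had a higher mean in the knockout, against 46.7% of all genes, but the differences of Ccng1 and Sesn2 were near 0 and changed sign with the processing. Their median difference was 0.10, against -0.005 over all genes. In limma with Benjamini-Hochberg adjustment over all 21789 probe sets, 0 of the 8 genes had an adjusted p under 0.05, against 5 of all genes or 0.0251%. All 3 knockout arrays lay above all 4 wild type arrays for 3 of the 8, Ninj1, Mdm2 and Gadd45a, where the background in that direction is 3.29%. Because these values were in view when the genes were chosen, nothing is read from the shares.

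**Figure D1:**
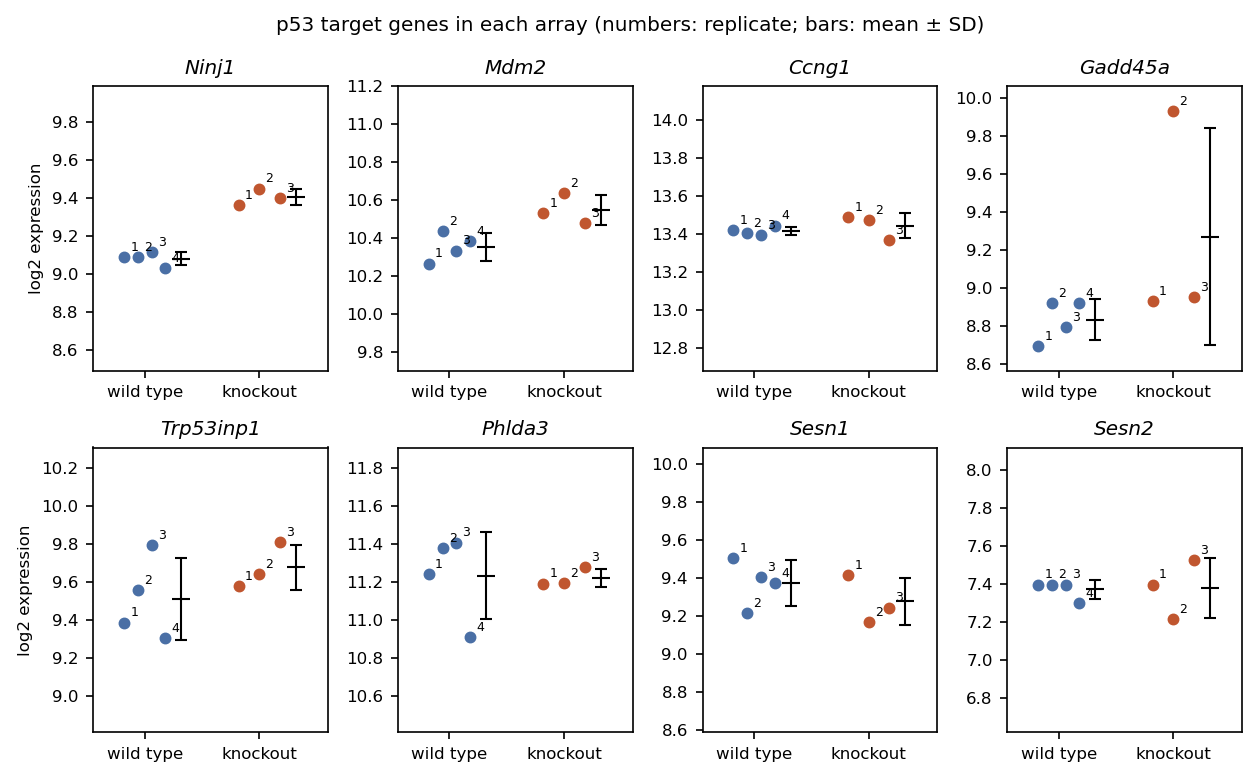
Log2 expression (vertical axis, every panel spanning the same range) of the 8 measured p53 target genes in the 4 wild type (blue) and 3 knockout (orange) arrays. Points are arrays numbered by replicate and black bars are the mean ± SD of each group. Ninj1 and Mdm2 are higher in all 3 knockout arrays, Gadd45a stands at 9.93 in knockout replicate 2 alone, and the groups of the remaining 5 genes overlap.

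Ninj1 was the member with the widest gap between the genotypes for its spread. In order of replicate number, as for every gene below, it read 9.09, 9.09, 9.12 and 9.03 in the wild type arrays against 9.36, 9.45 and 9.40 in the knockout arrays. The wild type arrays lay within 0.08 of one another and the knockout arrays within 0.09, and the lowest knockout array was above the highest wild type array. The means were 9.08 ± 0.04 (SD, n = 4) and 9.41 ± 0.04 (SD, n = 3), a difference of 0.32 ± 0.04 or 1.25-fold. Over all alternatives and with each array left out in turn the difference ran from 0.30 to 0.34. The spread of Ninj1 within the genotypes, a pooled SD of 0.04, ranked at percentile 15.5 among all genes.

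Macrophage markers were higher in the same arrays as Ninj1. The cell type lists were chosen with earlier results of these data known, so their shares are a description. All 16 measured macrophage markers were higher in the knockout, against 46.7% of all genes, and 15 of them without overlap, against 3.29% in that direction. In limma 2 passed an adjusted p of 0.05, against 0.0251% of all genes. They were Lyz2, a lysozyme named after its values were seen, and Tyrobp, a signalling adaptor of myeloid receptors. Lyz2 (adjusted p = 0.0088 in limma) was not called after wild type replicate 1, 3 or 4 was left out, where its adjusted p ran from 0.066 to 0.099. Tyrobp (adjusted p = 0.017 in limma) kept its call only when the array left out was knockout replicate 1, and the other 6 omissions gave an adjusted p from 0.066 to 0.13. With the replicate number as a block their adjusted p was 0.24 and 0.26. In that fit wild type replicate 4 has no partner and drops out of the comparison. The mean of the 16 markers lay between 8.03 and 8.24 in the wild type arrays and between 8.64 and 8.80 in the knockout arrays. With the genotype means removed, r with Ninj1 over the 7 arrays was 0.61 for the macrophage mean and 0.69 for the mean of 16 immediate early genes, as a description. In a bulk sample more cells of a type and more RNA per cell cannot be told apart, and the part of macrophages in the Ninj1 difference was not tested. None of the 16 markers was among the dimmest 25% of genes. The 6 neutrophil markers, by contrast, had 4 members in that dimmest range and 6 measured T and B cell markers had 3, and 0 of either list had an unadjusted p under 0.05 in limma or passed adjustment. All 8 endothelial markers were lower, with a median difference of -0.31 and 5 of 8 without overlap, and 5 of 6 fibro-adipogenic markers were higher, with a median of 0.30 and 2 of 6 without overlap, against 8.61% of all genes. In limma 0 of either list passed an adjusted p of 0.05, and 6 of 8 and 2 of 6 had an unadjusted p under 0.05, against 10.6% of all genes.

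The 5 genes whose pattern over the 7 arrays was most like that of Ninj1 were taken by Pearson's r among 9963 genes of at least median brightness. They were Tyrobp (r = 0.995), Ctss, the protease cathepsin S of antigen-presenting cells (r = 0.981), Cstb, the protease inhibitor cystatin B (r = 0.980), Ttc9, a tetratricopeptide repeat protein (r = 0.979), and Rassf4, a Ras-association domain protein (r = 0.977). Tyrobp and Ctss are also members of the macrophage list above. The arrays fall into 2 genotypes, so any gene with a similar gap between them has a high r, and these values are a description. With the genotype means removed r was 0.87 for Tyrobp, 0.69 for Ctss, 0.84 for Cstb, 0.76 for Ttc9 and 0.87 for Rassf4. The same 7 arrays picked these genes, so likeness within the genotypes, here and in the readings of Tyrobp below, is part of the choice. Tyrobp read 8.13, 8.16, 8.23 and 8.06 in the wild type arrays against 8.76, 8.82 and 8.75 in the knockout arrays. As for Ninj1, wild type replicate 4 was the lowest array and knockout replicate 2 the highest. The closest paralog, Ninj2, which encodes ninjurin 2, differed by -0.01 ± 0.04 and its genotypes overlapped.

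**Figure D2:**
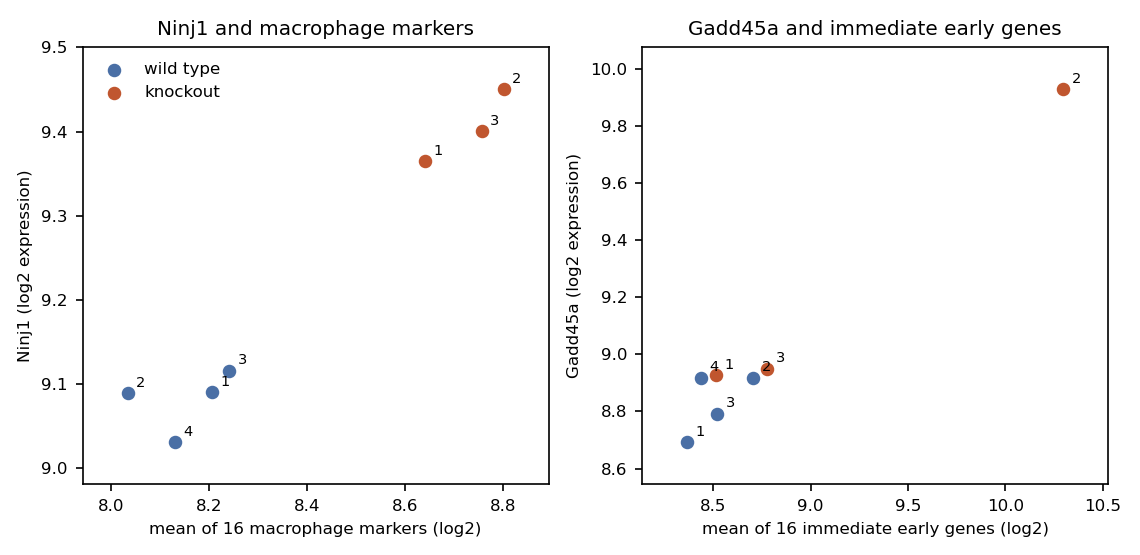
Left, log2 expression of Ninj1 (vertical axis) against the mean log2 expression of 16 macrophage markers (horizontal axis). Right, Gadd45a against the mean of 16 immediate early genes. Points are arrays (blue wild type, orange knockout) numbered by replicate. The 3 knockout arrays are apart from the 4 wild type arrays on both axes at left, and at right knockout replicate 2, at 10.30 on the horizontal axis, is apart from the other 6.

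The feedback genes of p53 came next. Mdm2, the ligase that removes p53, read 10.27, 10.44, 10.33 and 10.38 in the wild type arrays against 10.53, 10.64 and 10.48 in the knockout arrays. The lowest knockout array was 10.48 and the highest wild type array 10.44, so the groups did not overlap but lay close. The means were 10.36 ± 0.07 (SD, n = 4) and 10.55 ± 0.08 (SD, n = 3), a difference of 0.19 ± 0.06 or 1.14-fold. It ran from 0.15 to 0.24 over the alternatives, with the lowest value without knockout replicate 2. Mdm4, the partner of MDM2 that masks the activating domain of p53, differed by -0.07 ± 0.05 and its groups overlapped.

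Ccng1, the cyclin G1 gene, whose product recruits a phosphatase to MDM2, was nearly level. Its readings were 13.42, 13.41, 13.39 and 13.44 in the wild type arrays against 13.49, 13.47 and 13.37 in the knockout arrays. Knockout replicates 1 and 2 were above the wild type range and knockout replicate 3 below it. The difference was 0.03 ± 0.04, and its sign turned to -0.002 after a further quantile normalization. Its paralog Ccng2 differed by 0.01 ± 0.13.

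Gadd45a, a stress sensor that acts in growth arrest and DNA repair and that is also raised in denervated muscle, was high in a single array. It read 8.69, 8.92, 8.79 and 8.92 in the wild type arrays against 8.93, 9.93 and 8.95 in the knockout arrays. Knockout replicate 2 stood 0.98 above the next array, while knockout replicates 1 and 3 lay just above the highest wild type value of 8.92. The difference was 0.44 ± 0.24 and 0.11 without knockout replicate 2. That array was also the highest for immediate early genes, whose mean over 16 members was 10.30 there, 8.51 and 8.78 in the other knockout arrays and between 8.36 and 8.70 in wild type. Of those 16 genes, 11 stood more than 0.5 above every other array in knockout replicate 2, against 0.993% of all genes. The part of immediate early gene induction in the Gadd45a reading of that array was not tested. All 9 measured genes of a denervation and regeneration list also had a higher mean in the knockout, with a median difference of 0.35, or 0.32 without knockout replicate 2, and 5 of 9 without overlap, against 8.61% of all genes. The embryonic myosin gene Myh3, named after its values were seen, was the 1 adjusted call (adjusted p = 0.022 in limma). It kept that call only when the array left out was knockout replicate 1, and the other 6 omissions gave an adjusted p from 0.057 to 0.17. The mean of the 9 genes lay between 8.30 and 8.39 in wild type and between 8.69 and 8.89 in the knockout, and the part of such genes in the Gadd45a difference was not tested. This list and the immediate early list were also chosen with earlier results of these data known, so their shares are a description.

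The paralogs of Gadd45a varied as widely. Gadd45b differed by 0.36 ± 0.26, or 0.10 without knockout replicate 2, where it read 10.65. Gadd45g differed by -0.22 ± 0.59, with values from 9.36 to 11.00 in wild type and from 9.38 to 11.31 in the knockout, and knockout replicate 2 was again the highest array. Without that array its difference was -0.84. Both genes had overlapping groups.

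Trp53inp1 and Phlda3 belong to the death and survival arm of p53. Trp53inp1, a nuclear and autophagy protein that promotes p53-dependent death, read 9.38, 9.55, 9.79 and 9.30 in the wild type arrays against 9.58, 9.64 and 9.81 in the knockout arrays. Wild type replicate 3 lay among the knockout arrays, and the difference was 0.17 ± 0.12, from 0.10 without wild type replicate 4 to 0.26 without wild type replicate 3. Its paralog Trp53inp2, an autophagy regulator of muscle, differed by -0.10 ± 0.10.

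Phlda3, a competitor of the kinase AKT for membrane lipids, read 11.24, 11.38, 11.41 and 10.91 in the wild type arrays against 11.19, 11.20 and 11.28 in the knockout arrays. All 3 knockout arrays lay inside the wild type range, which was set by replicate 4 at its lower end. The difference was -0.01 ± 0.12, or -0.12 without wild type replicate 4 and 0.05 without wild type replicate 3. Its paralog Phlda1 differed by 0.52 ± 0.37, and by 0.01 without knockout replicate 2, where it read 9.06. Phlda2 differed by 0.04 ± 0.03.

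The other BCL2 family genes and CDK inhibitors among the paralogs were also measured. The death effector Bak1 differed by 0.19 ± 0.08, Bok by 0.004 ± 0.03, and the survival genes Bcl2, Bcl2l1 and Mcl1 by -0.17 ± 0.06, -0.11 ± 0.07 and 0.05 ± 0.08. The CDK inhibitor Cdkn1b differed by -0.05 ± 0.08 and Cdkn1c by 0.08 ± 0.06. Of the 16 paralogs 0 passed an adjusted p of 0.05 in limma and 1, Bcl2, had an unadjusted p under 0.05, or 6.25% against 10.6% of all genes. The genotypes were apart for 0 of the 16, against 8.61% of all genes. The 16 had a median difference of 0.01.

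**Figure D3:**
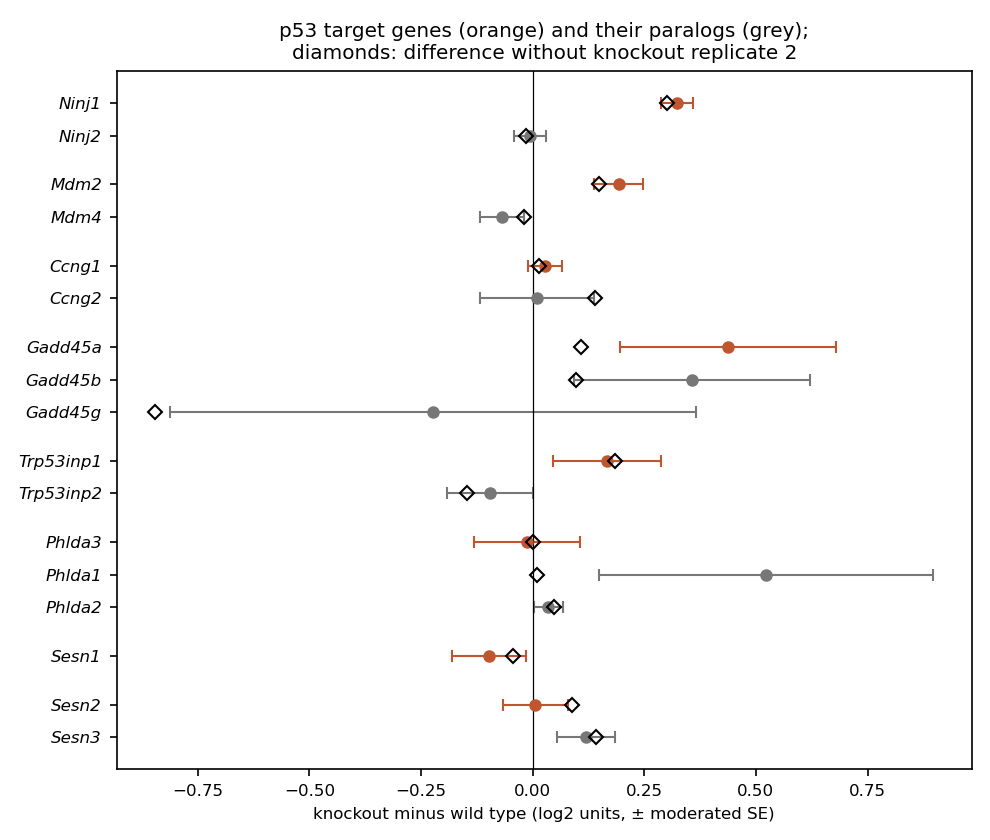
Knockout minus wild type difference in log2 units (horizontal axis) for the 8 measured p53 target genes (orange) and their paralogs of the same gene families (grey), with bars of ± 1 moderated standard error. Open diamonds give the difference without knockout replicate 2. The diamonds of Gadd45a and Phlda1 move to 0.11 and 0.01, while that of Ninj1 stays at 0.30.

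The sestrins link p53 to metabolism. Sesn1 and Sesn2 encode leucine-binding and antioxidant proteins that restrain mTORC1 through the GATOR complexes and can activate AMPK. Sesn1 read 9.51, 9.21, 9.41 and 9.37 in the wild type arrays against 9.42, 9.17 and 9.25 in the knockout arrays. The groups overlapped, since wild type replicate 2 was the second lowest array, and the difference was -0.10 ± 0.08. Leaving out 1 array moved it from -0.17, without knockout replicate 1, to -0.04, without knockout replicate 2.

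Sesn2 read 7.40 in wild type replicates 1 to 3 and 7.30 in replicate 4, and 7.40, 7.21 and 7.52 in knockout replicates 1 to 3. The deposited value was identical in 4 of the arrays, as it was in at least 4 arrays for 15.2% of all genes. The wild type range of 0.10 lay inside the knockout range of 0.31. The difference was 0.01 ± 0.07, and it ran from -0.07 without knockout replicate 3 to 0.09 without knockout replicate 2. Sesn3, which is mainly a FoxO target, differed by 0.12 ± 0.06.

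Genes that act with the sestrins were counted from a list of 20 in the mTORC1, GATOR and oxidant pathways. In limma 0 of the 20 passed an adjusted p of 0.05 and 6 had an unadjusted p under 0.05, all lower and among them the targeted Prkaa1 and Prkaa2, against 10.6% of all genes (6.69% lower). Without knockout replicate 2 there were 2, against 7.44% of all genes. Besides Prkaa1 and Prkaa2, those of smallest p were Tsc2, an inhibitor of mTORC1 signalling and substrate of AMPK, at -0.09 ± 0.03 and Nprl2, a GATOR1 subunit, at -0.15 ± 0.06 (adjusted p = 0.41 for both in limma). Without knockout replicate 2 the median of the list was -0.07, and with it -0.06.

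The remaining p53 pathway was read from 24 measured regulators and 53 measured further targets. Trp53 itself was not analysed here. Among the regulators 0 passed an adjusted p of 0.05 in limma and 2, both lower, had an unadjusted p under 0.05, or 8.33% against 10.6% of all genes (6.69% lower). Rchy1, a p53 ubiquitin ligase, differed by -0.22 ± 0.09, the arginine methyltransferase Prmt5 by -0.09 ± 0.04, the p53-binding protein gene Trp53bp2 by 0.06 ± 0.03 and the deubiquitinase Usp7 by -0.18 ± 0.09 (limma, adjusted p from 0.44 to 0.57). The median over the 24 regulators was -0.02.

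Among the 53 further targets 0 passed an adjusted p of 0.05 in limma. There were 11 with an unadjusted p under 0.05, 4 higher and 7 lower, or 20.8% against 10.6% of all genes (3.93% higher and 6.69% lower), and 8 without knockout replicate 2, where 7.44% of all genes had such a p. The median difference was 0.03. The groups did not overlap for 7 of the 53 or 13.2%, with 4 higher and 3 lower, against 8.61% of all genes (3.29% higher and 5.33% lower), and for 11 without knockout replicate 2, where 13.4% of all genes did not overlap. The list was chosen with earlier results of these data known, so its shares are a description.

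Eda2r, the X-linked ectodysplasin A2 receptor and a p53 target, had the smallest p of the 53. It read 8.03, 8.29, 8.57 and 8.07 in the wild type arrays against 9.29, 9.41 and 9.54 in the knockout arrays, with every knockout array above every wild type array. The difference was 1.17 ± 0.14 or 2.25-fold, with an adjusted p of 0.083 in limma, a level under 0.10 that 0.361% of all genes reached, and 1.18 without knockout replicate 2. Next by p were Pltp, a phospholipid transfer protein, at 0.18 ± 0.03, Ctsd, the lysosomal protease cathepsin D, at -0.23 ± 0.06, and Cgref1, a calcium-binding growth regulator, at 0.29 ± 0.07, with adjusted p of 0.15, 0.25 and 0.26 in limma. For these 3 genes too the groups did not overlap. Prkab1, a p53 target that encodes the AMPK subunit β1, differed by 0.01 ± 0.05.

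Further targets, named after their values were seen, followed knockout replicate 2. Btg2, an antiproliferative gene, read 11.43 there and from 8.17 to 8.61 elsewhere, so its difference of 1.16 ± 0.69 was 0.20 without it. Ier5 differed by 0.77 ± 0.42 and by 0.18 without that array, Thbs1, the matrix protein thrombospondin 1, by 0.68 ± 0.52 and -0.03, and Dram1, a lysosomal autophagy protein, by 0.27 ± 0.17 and 0.05. These 4 of the 53 stood more than 0.5 above every other array in knockout replicate 2, against 0.993% of all genes.

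Other widely used p53 readouts, also named after their values were seen, had overlapping genotypes. Zmat3 differed by 0.09 ± 0.05, Ppm1d, the phosphatase that ends p53 signalling, by 0.03 ± 0.05, Aen, an apoptosis-enhancing nuclease, by 0.05 ± 0.04, Rps27l by 0.04 ± 0.09 and the death receptor gene Fas by -0.03 ± 0.12. The deposited value of Aen was identical in 4 of the arrays. Tigar, a fructose bisphosphatase that restrains glycolysis, differed in the other direction, at -0.40 ± 0.12 (limma, adjusted p = 0.34). Its groups met only at 9.66, the identical deposited value of wild type replicate 2 and knockout replicate 1.

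**Figure D4:**
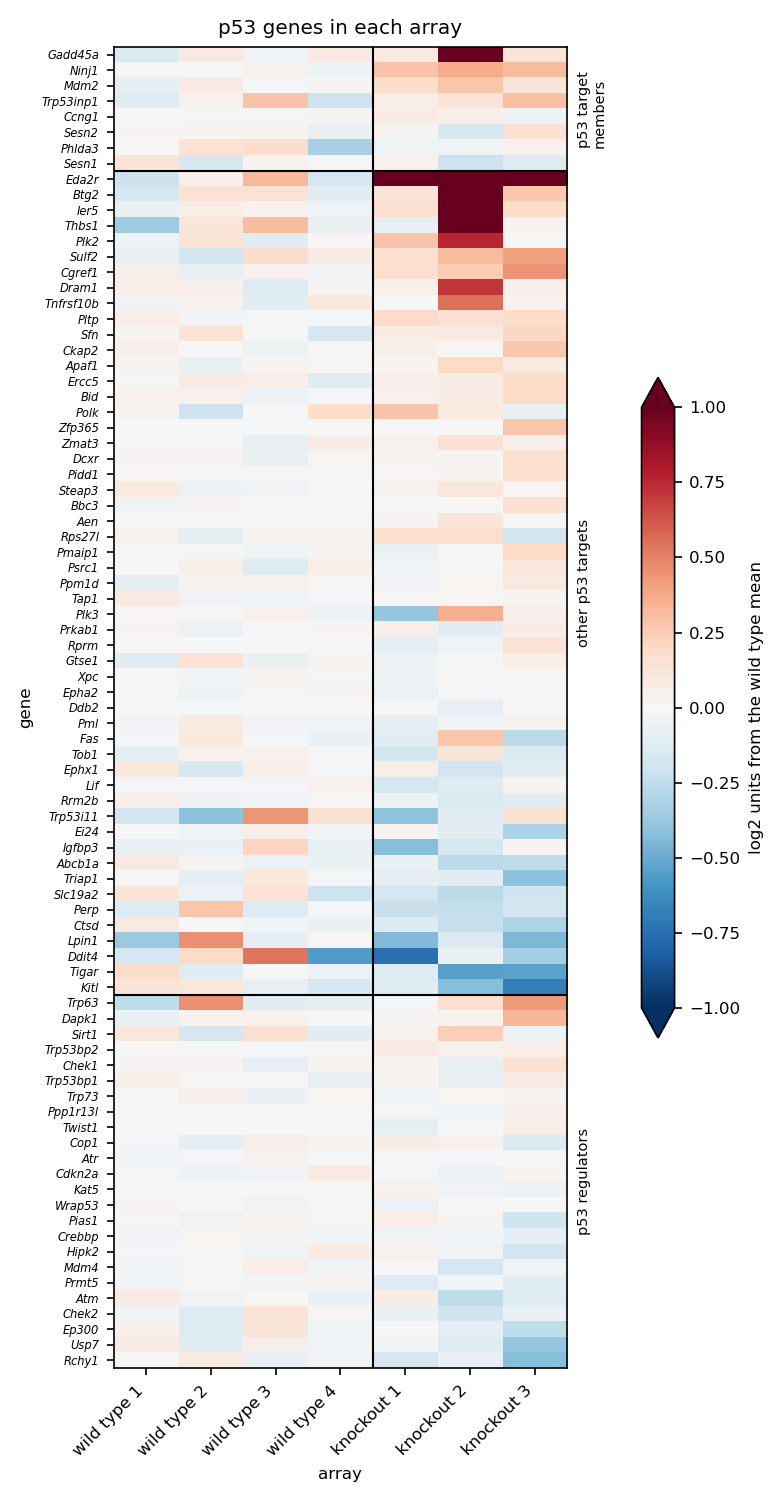
Colour gives each array's log2 expression minus the wild type mean of that gene (red higher, blue lower, saturated at ± 1), for 8 p53 target genes, 53 further p53 targets and 24 regulators (rows, ordered by difference within each block) in the 7 arrays (columns). Among others, Eda2r, Ninj1, Mdm2, Pltp and Cgref1 are red in all 3 knockout arrays. By contrast, Gadd45a, Btg2, Ier5, Thbs1 and Dram1 are dark in knockout replicate 2 alone.

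Cell cycle genes that p53 and p21 are known to lower were read from a list of 15 measured members. In limma 0 passed an adjusted p of 0.05 and 3 had an unadjusted p under 0.05, all higher, against 10.6% of all genes (3.93% higher). Without knockout replicate 2 there were 2, against 7.44% of all genes. The proliferation marker Mki67 differed by 0.23 ± 0.07, the cyclin gene Ccna2 by 0.27 ± 0.09, the ribonucleotide reductase gene Rrm2 by 0.25 ± 0.08 and Ccnb2 by 0.15 ± 0.06 (adjusted p from 0.34 to 0.48 in limma). The median difference over all 15 was 0.06, and 5 of the 15 were among the dimmest 25% of genes.

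The 8 genes did not vary as a block. Over their 28 pairs, Pearson's r across the 7 arrays ran from -0.73 to 0.83 with a median of 0.08, and 15 pairs were positive. The pair with the highest r was Ninj1 and Mdm2, at 0.83, and with the genotype means removed it was 0.18. The pair Mdm2 and Gadd45a had 0.83 as well and 0.77 with the means removed, and both genes were highest in knockout replicate 2. Trp53inp1 and Phlda3 had 0.69 and 0.80, with wild type replicates 2 and 3 above wild type replicates 1 and 4 for both. All pairs share the same 7 arrays, so these values are a description.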

How the data were processed

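The deposited table, a value per probe set and array, held 28856 probe sets on 7 arrays made from 100 ng of biotin-labelled total RNA, per the labels' protocols. They were taken to be log2 expression from their range of 4.41 to 14.65, so the log base is inferred. For the deposited log2 values, background correction, scaling between arrays and summarization by the authors are not stated in the labels, and a shift shared by all genes may have been removed. Probe sets with 1 symbol in GEO's platform annotation numbered 21789, while 1621 had several and 5446 none. Of the 21789, 21698 matched the RefSeq table of GRCm38.p6 by gene identifier. Genes with several probe sets were read from the one with the highest mean over the 7 arrays.

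Knockout minus wild type was fitted on all 7 arrays with limma 3.58.1 in R 4.3.3 (lmFit and eBayes), with Benjamini-Hochberg adjustment over the 21789 probe sets. The method was tested on simulated data. Arrays were taken as separate mice because the series design counts mice, and their number limits the precision. Genes named were the 10 targets, Eda2r, Prkab1, the 4 of smallest p in each p53-related list, the paralogs and the 5 genes most like Ninj1. Lyz2, Myh3, Btg2, Ier5, Thbs1, Dram1, Zmat3, Ppm1d, Aen, Rps27l, Fas and Tigar were named after their values were seen. Members and the 16 lists were chosen with earlier results of these data known. Columns left unused numbered 0. Alternatives were quantile normalization, median centring, a filter on the dimmest 25%, array weights, a prior that was robust and followed the mean level, a fit on the whole table, the mean of a gene's probe sets, the replicate number as a block, a threshold of 0.10 and leaving out each array.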

Additional observations from a re-analysis of the deposited data

Results flagged for a closer look

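In 4 of 46 named genes examined, 1 of the 4 wild type arrays stood further from the others than Dixon's 95% limit allows. Chance alone flags about 1 in 20. Sesn2 read 7.30 in wild type replicate 4, against an identical 7.40 in the other 3, where any departure is flagged. Pltp read 9.35 in wild type replicate 1, against 9.26 to 9.27 in the others. Prkaa2 read 12.03 in wild type replicate 2, against 12.28 to 12.30 in the others, and that reading lies inside the knockout range of 11.95 to 12.04. Mdm4 read 9.15 in wild type replicate 3, against 9.06 to 9.07 in the others.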

How the results depend on the processing

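The median difference of the 8 measured p53 targets ran from 0.07 to 0.12 over 15 alternatives. The differences of Ninj1, Mdm2, Gadd45a, Trp53inp1 and Sesn1 kept their sign in all 15, and those of Ccng1, Phlda3 and Sesn2 in 14, 10 and 8. Several of the 15 could not move a difference, since each gene has 1 probe set. These were the dim filter, the changed prior, the fit on the whole table and the mean of a gene's probe sets. The replicate block gave the same differences as leaving out wild type replicate 4, which has no partner in it. Of the 92 p53 regulators, further targets and paralogs, 14 had an unadjusted p under 0.05 in limma, 4 higher and 10 lower. That is 15.2%, against 10.6% of all genes. With an adjusted p under 0.05 in limma there were 0 of these genes under every alternative at that threshold, and 1, Eda2r, at 0.10. The count over all genes, 5, became 72 at 0.10, and omitting single arrays gave counts from 0 to 14. Omitting wild type replicate 1, 3 or 4 gave 0, omitting wild type replicate 2 gave 1, and the fits lacking knockout replicate 2 or 1 gave 2 and 14. With the replicate number as a block it was 0, and the median difference of the p53 targets was 0.07. The numbers were not taken to pair the mice. The deviations of same-numbered arrays correlated at 0.29, 0.16 and -0.20 for replicates 1 to 3. Knockout replicates 1 and 2 correlated best with the wild type array of their own number, and knockout replicate 3 with wild type replicate 4. These values do not decide whether the numbers pair the mice. Signal near background limits what an array resolves, and 0 of the 8 targets were among the dimmest 25%.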
